A study of Mus musculus with 22 samples.

Results

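The epidermal growth factor (EGF) family and its ErbB receptors were followed in mouse kidneys whose ureter had been tied off. Members were taken by gene symbol: the ligand genes Egf, Hbegf, Areg, Ereg, Tgfa and Btc and the receptor genes Egfr, Erbb2, Erbb3 and Erbb4, 10 genes in all. The array annotation names 69 spots for them, and 9 of the 10 genes could be tested among 17039 genes. No spot is annotated to Areg, which was therefore not analysed here. Egf fell in obstructed kidneys at each day sampled, and Hbegf rose at days 1, 5 and 9. The groups did not overlap for either gene on any of the 4 days. Of all genes tested, 8.76% lay below sham kidneys on every day as Egf did, and 8.02% lay above them as Hbegf did. Erbb2 fell at days 1 and 9, Btc fell at day 9, and Egfr rose at day 1. The Btc and Egfr calls were lost in some other settings. Egfr spots were also grouped by annotated transcript after their values had been seen. The effects on the 2 larger sets differed by 0.58, 0.08, 0.91 and 0.95 log2 units at days 1, 2, 5 and 9.

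All animals were C57BL/6 mice. In the obstructed groups the left ureter was ligated and kidney RNA was taken 1, 2, 5 or 9 days later (3, 3, 3 and 4 animal numbers). In the sham groups the left ureter was dissected but not tied, and RNA was taken at the same days (2 animal numbers a day). Kidney RNA carried Cy5 and was hybridised on each of 22 two-colour arrays against a Cy3-labelled universal mouse reference RNA, so each level given here is a log2 ratio of kidney over reference and is not comparable between genes. Both arrays of sham animal S03, marked L and R, were averaged, which left 21 replicates. The letters are not explained, every array marked R is a sham array, and neither sex nor age is given. Nothing states how replicates were raised or processed, so p-values measure the spread between these samples. The RNA is from whole kidney. Spots reading exactly 0, taken as missing, were most frequent on obstructed array S09L (9271 of 45220) and sham array S08L (8038), and S21L correlated least with its own group (mean r = 0.919). Kidney genes were high on every array: Slc12a1, the sodium-potassium-chloride cotransporter of the thick ascending limb, lay between 6.64 and 8.24 in obstructed and between 8.70 and 9.16 in sham kidneys.

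Ligands of this family are made as membrane-anchored precursors, which proteases such as ADAM10 and ADAM17 cut to release the soluble factor. Released ligand binds EGFR or ERBB4, the receptor pairs with itself or with another ErbB protein, and the pair signals through the Ras-ERK and PI3K routes. ERBB2 has no known ligand of its own and acts as a partner, while ERBB3 has little kinase activity and also works in pairs. In the kidney, Egf is made chiefly by the thick ascending limb and distal convoluted tubule and much of it is shed into the urine. It promotes tubular growth, and through EGFR on the distal tubule it stimulates magnesium reabsorption by the channel TRPM6. Hbegf, Areg, Ereg and Tgfa are better known as ligands that damaged epithelium and inflammatory cells make.

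The DNA around the transcription starts of some members that moved, Hbegf not among them, is shown first. Promoters are where transcription factors act on a gene. RefSeq promoter windows (GRCm38.p6, 250 bases before to 50 bases after the start, read 5′ to 3′ along the gene) were used for 7 of the 10 members. Windows of Hbegf, Ereg and Erbb3 were not searched, so nothing is said here of their promoters. Egf has 2 windows there, of which the first in the table is printed, at chr3:129755273-129755572 on the minus strand; the second, at chr3:129725037-129725336, is also on the minus strand. The window of Btc lies at chr5:91402945-91403244 on the minus strand, that of Egfr at chr11:16751953-16752252 on the plus strand and that of Erbb2 at chr11:98412234-98412533 on the plus strand. Capitals mark the letters of a searched motif.
Egf: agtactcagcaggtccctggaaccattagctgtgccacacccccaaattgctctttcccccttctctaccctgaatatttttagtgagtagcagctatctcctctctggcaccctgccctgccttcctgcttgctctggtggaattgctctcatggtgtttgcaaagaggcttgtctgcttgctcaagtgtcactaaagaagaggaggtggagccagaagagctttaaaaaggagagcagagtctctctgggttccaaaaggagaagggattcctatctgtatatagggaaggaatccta
Btc: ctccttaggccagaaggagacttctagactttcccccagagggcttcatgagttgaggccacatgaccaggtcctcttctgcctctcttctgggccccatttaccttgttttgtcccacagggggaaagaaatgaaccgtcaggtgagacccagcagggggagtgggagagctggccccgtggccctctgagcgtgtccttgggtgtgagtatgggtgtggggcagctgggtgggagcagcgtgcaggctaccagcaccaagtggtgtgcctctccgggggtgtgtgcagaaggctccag
Egfr: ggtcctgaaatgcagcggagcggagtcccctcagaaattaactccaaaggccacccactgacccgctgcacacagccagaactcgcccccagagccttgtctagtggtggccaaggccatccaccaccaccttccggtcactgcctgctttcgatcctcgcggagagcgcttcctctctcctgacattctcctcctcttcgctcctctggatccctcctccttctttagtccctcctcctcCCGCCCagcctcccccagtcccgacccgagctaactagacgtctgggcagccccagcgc
Erbb2: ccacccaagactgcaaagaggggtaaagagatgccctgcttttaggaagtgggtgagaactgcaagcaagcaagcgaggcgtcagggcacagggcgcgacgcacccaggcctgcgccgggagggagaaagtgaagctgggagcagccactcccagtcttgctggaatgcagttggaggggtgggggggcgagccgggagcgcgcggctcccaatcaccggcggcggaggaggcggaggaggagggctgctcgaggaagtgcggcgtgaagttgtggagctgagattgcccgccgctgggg

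These windows were searched on both strands for TGANTCA, the site of Fos-Jun dimers (AP-1), TGACGTCA, the cyclic AMP response element (CRE), GCGNGGGCG, the site of Egr proteins, GGGCGG, the GC box of Sp1, and TATAAA, the TATA box. The shares of 32544 mouse promoter windows that hold them are 7.79% for AP-1, 1.8% for the CRE, 5.6% for Egr, 35.9% for the GC box and 13.6% for the TATA box. In the Egfr window 1 GC box was found on the opposite strand, beginning 9 bases before the start. Tgfa held 2 GC boxes. Areg held a CRE whose first base lies 61 bases before the start, a TATA box and 2 GC boxes, the second downstream of the start and on the opposite strand. None of these letters was found in the windows of Egf (both), Btc, Erbb2 or Erbb4, and none of the 7 members held the AP-1 or the Egr letters. In the RefSeq annotation (GRCm38.p6) Epgn, Ereg, Areg and Btc are consecutive protein-coding genes on chromosome 5.

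Egf was lower in all obstructed kidneys. At day 1 its log2 ratio was 5.19, 4.52 and 4.48 in obstructed kidneys, against 6.48 and 6.35 in sham kidneys. At day 2 it was 5.08, 4.65 and 5.39 in obstructed kidneys, against 6.37 and 6.37 in sham kidneys. The lowest sham value of both days stood well above the highest obstructed one. At day 5 the ratio was 5.05, 5.29 and 5.20 in obstructed kidneys, against 5.98 and 5.83 in sham kidneys, and at day 9 it was 4.96, 4.51, 4.26 and 4.49 in obstructed kidneys, against 6.05 and 6.11 in sham kidneys. Day 5 had the narrowest gap, with both the highest obstructed mean and the lowest sham mean of the 4 days. The 2 arrays of sham animal S03 read 6.08 and 6.87, a wide spread, but both lie above every obstructed kidney.

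By limma over all genes, Egf fell by 1.68 ± 0.23 on the log2 scale at day 1 (SE; 3.21-fold lower, adjusted p = 0.000263), by 1.33 ± 0.23 at day 2 (adjusted p = 0.00167), by 0.73 ± 0.23 at day 5 (1.65-fold lower, adjusted p = 0.0315) and by 1.53 ± 0.22 at day 9 (2.88-fold lower, adjusted p = 6.15e-05). Averaged over the 4 days the drop was 1.32 ± 0.12 (2.49-fold, adjusted p = 1.85e-07). All 10 spots for Egf fell, between -1.37 and -1.25, and the spots of 1 array differed by a median SD of 0.06. In whole-kidney RNA fewer Egf-making cells and less Egf RNA per cell cannot be told apart. Whether the drop differed between days did not pass (F test, adjusted p = 0.230), nor did the change with time within obstructed kidneys (adjusted p = 0.0618). The day 5 call was lost without any 1 of S19L, S31L, S22L or S32L (adjusted p between 0.0628 and 0.168). At day 5, the day on which both image folders named in the labels hold both operations, the difference was -0.81 within folder 1 (2 obstructed, 1 sham) and -0.63 within folder 2 (1 and 1).

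Egf did not fall alone among genes of its segment. Of 13 measured markers of the thick ascending limb and distal tubule, 10 fell and 0 rose over the mean of the 4 days, with a median of -0.35, beside -0.01 for all genes tested, of which 26.0% fell. Slc12a1 fell by 1.46 ± 0.15, Wnk4, a kinase that sets distal salt transport, by 0.85 ± 0.10, Klhl3, its degradation adaptor, by 1.66 ± 0.22, and Ptger3, a prostaglandin receptor, by 1.21 ± 0.16 (adjusted p at most 1.33e-05 for these 4). Umod, uromodulin, also made by the thick ascending limb and picked here after its value was seen, differed by -0.17 ± 0.09 (adjusted p = 0.127). The mean level of the marker list ran from 4.28 to 4.95 in obstructed kidneys and from 5.20 to 5.74 in sham kidneys. Its part in the drop of Egf was not tested. With quantile normalization 6 of the 13 markers fell, against 10.

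**Figure D1:**
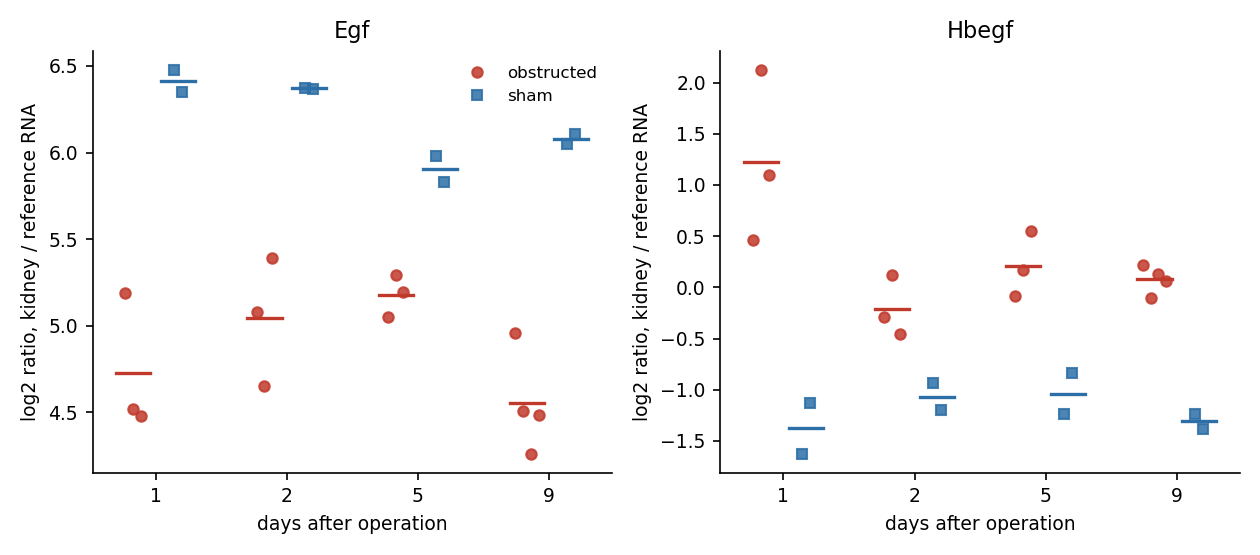
Log2 ratio of kidney over reference RNA for Egf (left panel) and Hbegf (right panel) by days after operation, with obstructed kidneys as circles left of sham kidneys as squares and a bar at each group mean. For Egf every circle lies below every square, the highest at 5.39 and the lowest square at 5.83, and for Hbegf every circle lies above every square, the lowest at -0.45 and the highest square at -0.84.

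Hbegf, a heparin-binding ligand of EGFR and ERBB4, moved the other way. At day 1 its log2 ratio was 0.46, 2.12 and 1.10 in obstructed kidneys, against -1.63 and -1.13 in sham kidneys. At day 2 it was -0.29, 0.12 and -0.45 in obstructed kidneys, against -0.94 and -1.20 in sham kidneys. Day 1 was the highest obstructed group and also the most spread, over more than 1 log2 unit. At day 5 the ratio was -0.09, 0.17 and 0.55 in obstructed kidneys, against -1.24 and -0.84 in sham kidneys, and at day 9 it was 0.22, -0.11, 0.14 and 0.06 in obstructed kidneys, against -1.24 and -1.38 in sham kidneys. All 13 obstructed values lie above all 8 sham values. Among the obstructed groups the means ran in the order day 1, day 5, day 9 and day 2 from high to low, and the values of days 2, 5 and 9 overlapped one another, as did those of days 1 and 5.

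Obstructed kidneys held 6.08-fold more Hbegf RNA than sham kidneys at day 1 (log2 2.61 ± 0.35, adjusted p = 0.000194), with differences of 0.86 ± 0.35 at day 2 (adjusted p = 0.108), 1.25 ± 0.35 at day 5 (adjusted p = 0.0146) and 1.39 ± 0.33 at day 9 (adjusted p = 0.00318). The mean of the 4 days was 1.53 ± 0.17 (2.88-fold, adjusted p = 2.39e-06). The change with time within obstructed kidneys passed (F test, adjusted p = 0.00896), while the difference of the effect between days did not (adjusted p = 0.125). Within image folders the day 5 difference was 1.28 in folder 1 and 1.39 in folder 2. The array carries 1 spot for Hbegf, so no second probe checks it. The day 5 call was lost without S31L (1.08, adjusted p = 0.0555) and without S22L (1.05, adjusted p = 0.129).

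Markers of some cell types that could make or bring Hbegf rose in the same kidneys over the mean of the 4 days. Over that mean 27% of all genes rose and 26.0% fell. Of the macrophage genes, 6 were measured, Csf1r and Cd68 not among them, and all 6 rose, with a median difference of 2.22, and their mean level ran from -1.01 to 1.76 in obstructed kidneys, against -2.44 to -1.46 in sham kidneys. The list was lowest at day 1 among the obstructed groups (-1.01 to -0.44) and highest at day 9 (1.40 to 1.76). Of 7 neutrophil genes 6 rose (median 2.60), and of 7 genes of the urothelium, the lining of the pelvis and ureter, 4 rose (median 0.86). These were the keratin genes Krt20 (5.44 ± 0.37), Krt14 (2.44 ± 0.21) and Krt5 (0.86 ± 0.14) and the uroplakin gene Upk1b (1.21 ± 0.42). The other uroplakin genes of the list were not called. At day 1 the mean levels of both lists overlapped between operations. The neutrophil list ran from 1.26 to 3.52 in obstructed and from 0.68 to 1.74 in sham kidneys, and the urothelium list from 0.94 to 2.19 and from 0.02 to 1.33. Other lists rose less or not at all. Of 6 T and innate lymphoid genes 3 rose, a count that was lower in 25 of 34 other settings. Of 6 mast cell, basophil and eosinophil genes 0 rose and 1 fell, and of 5 endothelial genes 0 rose and 1 fell. At day 1, where 8.05% of all genes rose, 3 of the 6 macrophage, 1 of the 7 neutrophil and 2 of the 7 urothelium genes did. In each of the other lists 0 genes rose at day 1. The part of these cells in the rise of Hbegf was not tested.

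The remaining ligands changed less or read unevenly. Btc, betacellulin, which binds EGFR and ERBB4, was at 1.37, 1.26 and 1.73 in obstructed kidneys at day 1, against 1.36 and 1.80 in sham kidneys. At day 2 it was 1.54, 0.87 and 1.07 in obstructed kidneys, against 1.92 and 0.60 in sham kidneys. The groups overlapped on these early days. At day 5 it was 0.33, 0.37 and -0.06 in obstructed kidneys, against 1.24 and 0.99 in sham kidneys, and at day 9 it was -0.001, -0.36, -0.05 and 0.11 in obstructed kidneys, against 1.76 and 0.74 in sham kidneys. All obstructed values of the late days lie below all sham values.

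Btc thus differed by -0.12 ± 0.35 at day 1 (adjusted p = 0.861), -0.10 ± 0.35 at day 2 (adjusted p = 0.885) and -0.90 ± 0.35 at day 5 (adjusted p = 0.0683), and fell by 1.33 ± 0.33 at day 9 (2.51-fold lower, adjusted p = 0.00439). Its change with time in obstructed kidneys passed (adjusted p = 0.00218), but day 9 minus day 1 of the effect did not (-1.21 ± 0.48, adjusted p = 0.117). Over the 4 days the drop was 0.61 ± 0.17 (adjusted p = 0.00686), a call lost with zeros kept (-0.16, adjusted p = 0.584), in image folder 2 alone (-0.60, adjusted p = 0.056) and without S06R, S08L, S09L and S21L (-0.42, adjusted p = 0.0633). The day 9 call was lost without sham kidney S10L (-0.82, adjusted p = 0.116) and with zeros kept (-0.70, adjusted p = 0.203), a setting that brings in a second Btc spot measured on 1 array. At day 5 the difference was -0.89 within image folder 1 and -1.05 within folder 2.

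Tgfa, transforming growth factor alpha, had log2 ratios from -0.53 to 0.13 (median -0.23) in 13 obstructed kidneys, against -0.67 to -0.19 (median -0.46) in 8 sham kidneys. The ranges overlapped over the whole series but not within days 1 and 5. At day 1 they all but touched, at -0.409 in obstructed S38L and -0.414 in sham S06R. The day values were 0.25, 0.24, 0.46 and -0.06 in time order, none past the threshold, and the mean of the 4 days was 0.22 ± 0.09 (adjusted p = 0.0455). That last call was lost under 24 of 35 other settings, among them quantile normalization (0.16, adjusted p = 0.166) and no median centring (0.17, adjusted p = 0.0925). Of its 11 spots 2 rose by themselves.

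Ereg, epiregulin, was read by 2 spots that did not go together. The spot for AK019057 differed by 0.66 ± 0.29 over the 4 days (adjusted p = 0.0665) and that for NM_007950 by -0.10 ± 0.26 (adjusted p = 0.783). The sham values of the first spot included -3.51 in S06R and -3.50 in S08L, where the remaining replicates ran between -1.76 and -0.67. As a gene Ereg differed by 0.28 ± 0.17 (adjusted p = 0.176), with 95% limits of -0.08 and 0.64, and no call on any day.

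Egfr, the main receptor of these ligands, rose at day 1. Its ratio over 24 spots was 1.28, 1.18 and 0.83 in obstructed kidneys, against 0.44 and 0.55 in sham kidneys, a difference of 0.60 ± 0.13 (1.52-fold, adjusted p = 0.00613). From day 2 on the groups overlapped, with differences of 0.09, -0.01 and -0.10. The effect at day 9 minus that at day 1 was -0.70 ± 0.18 (adjusted p = 0.0231), a call lost with arrays marked L alone, with image folder 2 alone, with each probe by itself, without any 1 of S03, S06R or S33L, and without S06R, S08L, S09L and S21L together. The day 1 call was lost without sham S03 (0.55), with image folder 2 alone (0.66) and with arrays marked L alone (0.61). It was also lost without S06R, S08L, S09L and S21L together (0.66), with each probe by itself (0.585) and with each day fitted by itself (0.60, adjusted p = 0.167).

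Spots annotated to 2 different Egfr transcripts ran different courses. The array annotation assigns 11 Egfr spots to NM_207655, the RefSeq record of the full-length receptor, and 11 to NM_007912, the record of a shorter transcript that ends within the extracellular part. Where on the transcripts the probes lie is not given in the sources used here, so the names say only what the annotation says. This grouping was made after the values had been seen, so the p-values below for each set describe these data and do not test the grouping.

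The NM_207655 spots read 1.27, 1.09 and 0.52 in obstructed kidneys at day 1, against 0.08 and 0.04 in sham kidneys. At day 9 they read 0.39, 0.26, 0.52 and 0.51 in obstructed kidneys, against 0.09 and 0.08 in sham kidneys. Obstructed kidneys lay above sham kidneys on days 1, 5 and 9. Among 21259 features of 1 gene and 1 accession, the difference was 0.90 ± 0.17 at day 1 (adjusted p = 0.00227), 0.15 at day 2, 0.46 ± 0.17 at day 5 (adjusted p = 0.058) and 0.33 ± 0.16 at day 9 (adjusted p = 0.11). The mean of the 4 days was 0.46 ± 0.08 (adjusted p = 0.000249). The day 1 call was lost with image folder 2 alone (0.88), with arrays marked L alone (0.73) and without S06R, S08L, S09L and S21L together (0.88). It was also lost with each day fitted by itself (0.90, adjusted p = 0.152).

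The NM_007912 spots read 1.43, 1.30 and 1.13 in obstructed kidneys at day 1, against 0.86 and 1.08 in sham kidneys. At day 9 they read 0.34, -0.04, 0.28 and 0.32 in obstructed kidneys, against 0.65 and 1.03 in sham kidneys. Obstructed kidneys thus lay above sham kidneys at day 1 and below them at days 5 and 9. The difference was 0.32 ± 0.15 at day 1 (adjusted p = 0.167), 0.07 at day 2, -0.45 ± 0.15 at day 5 (adjusted p = 0.0386) and -0.62 ± 0.14 at day 9 (adjusted p = 0.00268), and it differed between days (F test, adjusted p = 0.0373). Leaving out sham S33L ended the day 9 call (-0.43, adjusted p = 0.0815), and leaving out any 1 of S19L, S21L, S22L or S32L ended that of day 5. Of all such features 16.2%, 13.5%, 23.8% and 38.8% were called at days 1, 2, 5 and 9, and 50.6% over the mean of the 4 days.

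**Figure D2:**
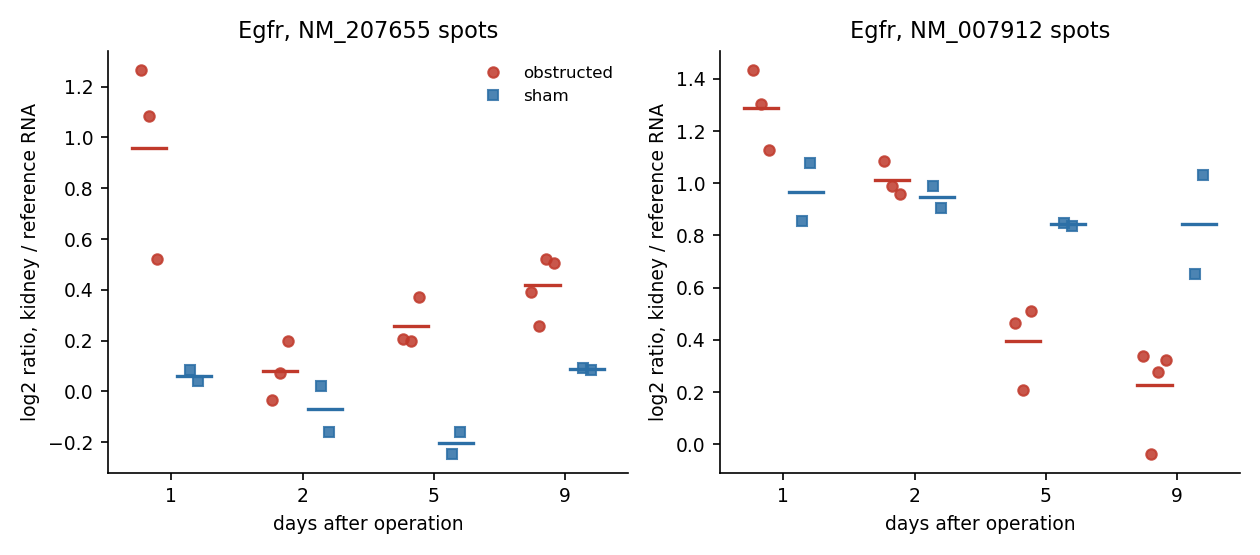
Log2 ratio of kidney over reference RNA for the Egfr spots annotated to NM_207655 (left panel) and NM_007912 (right panel) by days after operation, obstructed kidneys as circles left of sham kidneys as squares, bars at group means. The NM_207655 circles stand above the squares at days 1, 5 and 9, and the NM_007912 circles stand below the squares at days 5 and 9.

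Taken as a difference within each kidney, NM_207655 minus NM_007912 was -0.17, -0.22 and -0.60 in obstructed kidneys at day 1, against -0.77 and -1.04 in sham kidneys. At day 9 it was 0.05, 0.29, 0.24 and 0.18 in obstructed kidneys, against -0.56 and -0.95 in sham kidneys. Obstructed values lay above both sham values on each of these days. Obstructed minus sham, the gap was 0.58, 0.08, 0.91 and 0.95 at days 1, 2, 5 and 9 and 0.63 over their mean. No test of this gap is given, because the spots were grouped after their values had been seen. The p-values of each set share that limit. The other 2 Egfr spots were single ones: that for AK033431 rose by 0.35 ± 0.09 over the 4 days (adjusted p = 0.00542), and that for AK049452 differed by 0.03 ± 0.30 (adjusted p = 0.947).

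Erbb2, the ligandless partner receptor, was lower in obstructed kidneys at the first and last days. At day 1 its ratio was 0.58, 0.38 and 0.62 in obstructed kidneys, against 1.15 and 1.08 in sham kidneys. At day 9 it was 0.72, 0.61, 0.52 and 0.71 in obstructed kidneys, against 1.19 and 1.23 in sham kidneys. The groups did not overlap on these days nor at day 2, where obstructed kidneys read 0.90, 0.91 and 0.95, against 1.05 and 1.05 in sham kidneys. At day 5 they overlapped, with 0.69, 0.93 and 0.73 in obstructed kidneys, against 0.98 and 0.85 in sham kidneys.

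Erbb2 fell by 0.58 ± 0.10 at day 1 (1.5-fold lower, adjusted p = 0.00149) and by 0.56 ± 0.10 at day 9 (1.48-fold lower, adjusted p = 0.0003), and differed by -0.13 ± 0.10 at both day 2 and day 5. All 11 spots fell over the mean of the 4 days, between -0.54 and -0.31, and the gene fell by 0.35 ± 0.05 (adjusted p = 3.29e-05). Its change with time within obstructed kidneys passed (adjusted p = 0.0167), and the difference of the effect between days did not (adjusted p = 0.0745).

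**Figure D3:**
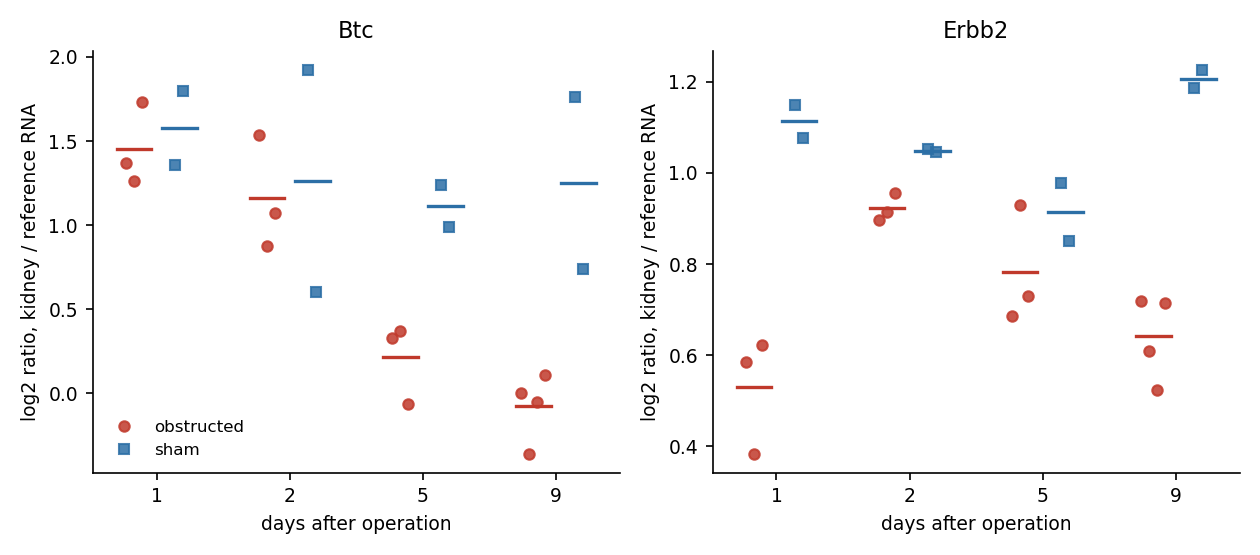
Log2 ratio of kidney over reference RNA for Btc (left panel) and Erbb2 (right panel) by days after operation, obstructed kidneys as circles left of sham kidneys as squares, bars at group means. Btc groups overlap at days 1 and 2 and part at days 5 and 9, and Erbb2 circles lie below the squares at days 1, 2 and 9.

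Erbb3, the kinase-poor partner, showed no call on any day. Its ratio ran from 1.07 to 2.41 (median 1.64) in obstructed kidneys, against 1.08 to 2.71 (median 1.80) in sham kidneys, and the mean difference of -0.12 ± 0.21 (adjusted p = 0.642) came from 4 spots that differed widely within an array (median SD 0.90). Erbb4, a receptor for Hbegf, Btc and the neuregulins, had 2 testable spots of 4, which went opposite ways. One differed by 0.74 ± 0.24 over the 4 days (adjusted p = 0.0215) and the other by -0.17 ± 0.06 (adjusted p = 0.024). As a gene Erbb4 differed by 0.26 ± 0.13 (adjusted p = 0.101). With only the spots measured on every array it read -0.17, so no direction is given.

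Counted over the family, at day 1 2 of the 9 tested members rose (Hbegf and Egfr) and 2 fell (Egf and Erbb2), where 17.4% of all genes tested were called, 8.05% higher and 9.39% lower. At day 2 only Egf was called, where 15.3% of all genes were (9.11% higher, 6.21% lower). Day 5 brought 1 rise (Hbegf) and 1 fall (Egf), where 26.1% of genes were called (15.0% higher, 11.1% lower). At day 9 1 rose (Hbegf) and 3 fell (Egf, Btc and Erbb2), where 41.6% of genes were called (20.6% higher, 21% lower). Over the mean of the 4 days 2 rose (Hbegf and Tgfa) and 3 fell (Egf, Btc and Erbb2), where 53.0% of genes were called (27% higher, 26.0% lower). The share of members called over the 4 days and at day 9 was thus close to that of genes at large. Without S06R, S08L, S09L and S21L the count over the 4 days was 3 instead of 5.

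Obstructed values lay above all sham values on each of the 4 days for 1 member, Hbegf, and below them for 1, Egf, where 8.02% and 8.76% of all genes did so. Among obstructed kidneys 4 members changed with time (Hbegf, Btc, Egfr and Erbb2), where 33.2% of genes did. Among sham kidneys 0 members and 0.00% of genes did by limma's F test after adjustment. The effect at day 9 differed from that at day 1 for 1 member, Egfr, where 11.7% of genes passed, and 0 members passed the F test across the 4 effects, where 4.89% did; Erbb2, Egfr, Hbegf and Egf had an unadjusted p below 0.05 there.

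**Figure D4:**
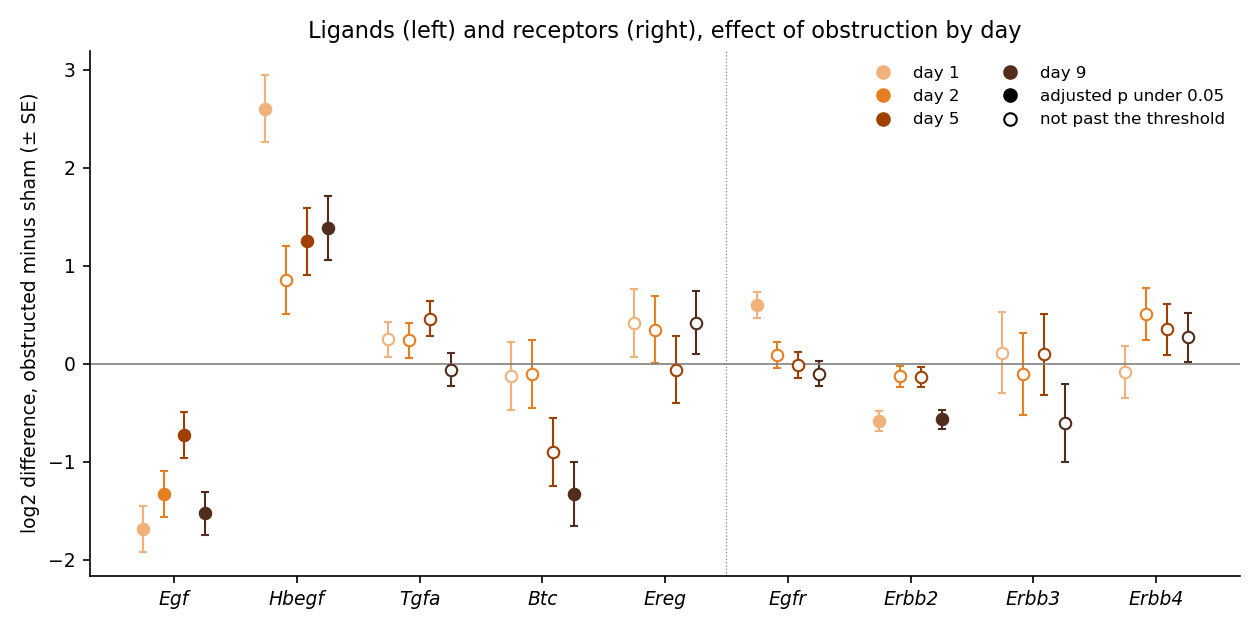
Log2 difference, obstructed minus sham, for the 9 tested members at days 1, 2, 5 and 9 (light to dark), with standard errors and filled points where the adjusted p is under 0.05. Egf is below 0 on all days, Hbegf is highest at day 1 with 2.61, and Btc reaches -1.33 at day 9.

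Other parts of the pathway were read from lists of known components, over the mean of the 4 days. Of 4 other ligands measured, Nrg1, a neuregulin that binds ERBB3 and ERBB4, rose by 1.44 ± 0.18 (adjusted p = 6.33e-06) and Nrg4, a ligand of ERBB4, fell by 0.48 ± 0.18 (adjusted p = 0.0321). Nrg2 and Epgn differed by 0.40 ± 0.38 and -0.01 ± 0.19. By single days Nrg1, like Hbegf, differed most at day 1 (2.76 ± 0.36, adjusted p = 0.000176). It also rose at day 5 (1.24 ± 0.36, adjusted p = 0.0189) and was not called at day 2 (0.90 ± 0.36) or day 9 (0.87 ± 0.34). Its effect at day 9 minus that at day 1 was -1.89 ± 0.50 (adjusted p = 0.0235). The Nrg4 call was lost in 11 of 34 other settings: quantile normalization, arrays marked L alone, without S06R, S08L, S09L and S21L together, and without any 1 of S03, S38L, S04L, S08L, S39R, S31L, S32L or S33L.

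Of 8 proteases and rhomboid proteins that take part in releasing ligands, 6 rose and 0 fell (median 0.82, beside -0.01 for all genes, of which 27% rose). Rhbdf2, a rhomboid pseudoprotease that matures ADAM17, rose by 1.05 ± 0.08 (adjusted p = 5.13e-08), Adam10 by 0.79 ± 0.07 (adjusted p = 2.21e-07), Rhbdl2, an intramembrane protease, by 1.09 ± 0.13 and Adam19 by 0.84 ± 0.13. Adam17, named after its value was seen as the main sheddase of Hbegf and Tgfa, differed by 0.13 ± 0.09 (adjusted p = 0.207). By single days it rose at day 9 (0.47 ± 0.16, adjusted p = 0.0297) and was not called at day 1 (-0.26 ± 0.17), day 2 (0.07 ± 0.17) or day 5 (0.25 ± 0.17).

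Of 15 feedback inhibitors measured, 8 rose and 2 fell (median 0.24), where 27% and 26.0% of all genes did. Spred1, which blocks Ras activation, rose by 0.70 ± 0.09, Cbl, which tags receptors for degradation, by 0.54 ± 0.08, the ERK phosphatase gene Dusp4 by 0.57 ± 0.10 and Spry1, a sprouty inhibitor, by 0.65 ± 0.12. With quantile normalization 5 rose, and the 2 falls became 0 or 1 in 9 of 34 other settings. Of 17 measured Ras-ERK and PI3K components 5 rose and 5 fell (median -0.08), shares close to the 27% and 26.0% of all genes. Nras rose by 0.86 ± 0.06, the PI3K regulatory subunit gene Pik3r1 by 0.66 ± 0.08, the adaptor gene Shc1 by 0.54 ± 0.07 and the kinase gene Akt1 by 0.36 ± 0.05 (adjusted p at most 1.39e-05 for these 4). The 5 that fell, named after their values were seen, were Pik3cb (-0.42 ± 0.09) and Pik3ca (-0.26 ± 0.06), catalytic subunit genes of PI3K, the kinase genes Map2k2 (-0.33 ± 0.06) and Araf (-0.26 ± 0.09), and Sos2 (-0.20 ± 0.07), a Ras exchange factor gene. Over 34 other settings the falls numbered 2 to 6 and the rises 5.

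Of 11 genes that ERK switches on, 9 rose and 2 fell (median 0.78), where 27% and 26.0% of all genes did. Fos rose by 3.15 ± 0.24 (8.9-fold, adjusted p = 4.6e-08), Egr1 by 2.73 ± 0.20, Myc by 1.67 ± 0.14 and Plaur, the urokinase receptor gene, by 1.59 ± 0.16. The 2 that fell were the cyclin gene Ccnd1 (-0.81 ± 0.21) and the transcription factor gene Etv5 (-0.37 ± 0.14), both named after their values were seen. Over 34 other settings 7 to 9 rose, and the count of falls was 1 in 11 of the 21 fits that leave out 1 replicate. These genes also respond to many other signals. Of 4 genes of magnesium transport, the channel genes Trpm6 and Trpm7 fell by 0.63 ± 0.20 and 0.37 ± 0.08. Cnnm2 fell by 0.48 ± 0.12, and the exchanger gene Slc41a3 rose by 0.31 ± 0.12 (adjusted p = 0.0445). By single days, 0 of the 4 were called at days 1 and 2, 1 rose at day 5, and at day 9 1 rose and 2 fell. Whether these changes depend on Egf was not tested. The Slc41a3 call over the mean of the 4 days was lost in 20 of 34 other settings, among them no median centring, quantile normalization and 14 of the 21 fits that leave out 1 replicate.

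**Figure D5:**
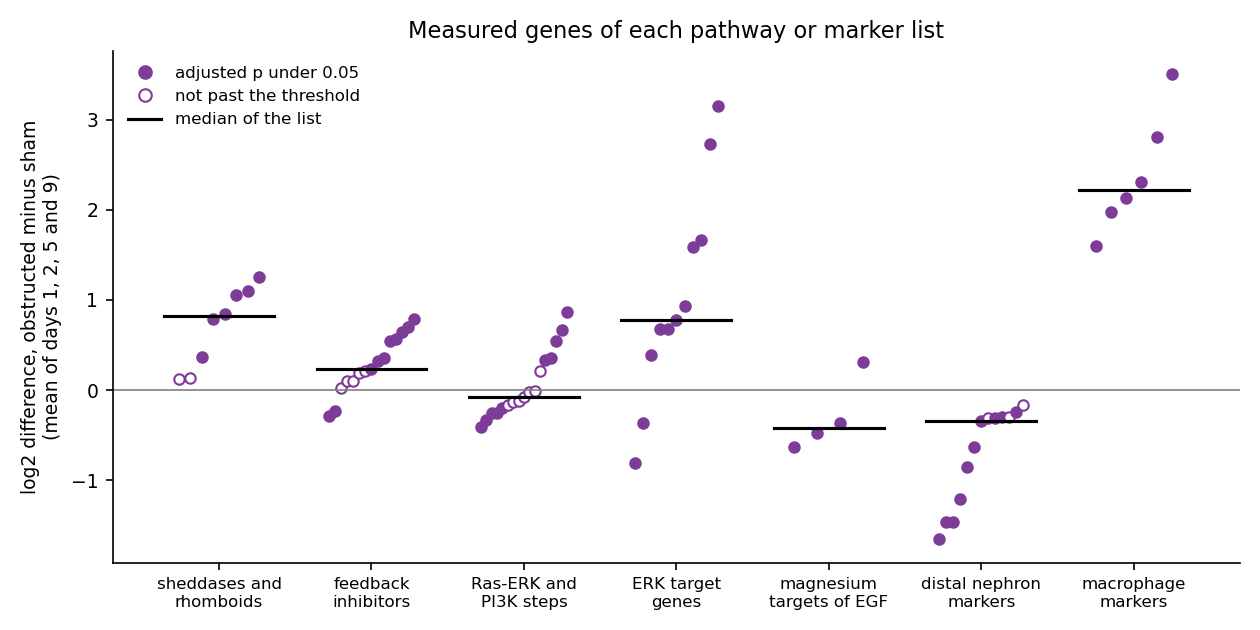
Log2 difference, obstructed minus sham, averaged over days 1, 2, 5 and 9, for each measured gene of 7 lists, filled where the adjusted p is under 0.05, with a bar at each list's median. Sheddases and ERK target genes have medians of 0.82 and 0.78, the magnesium and distal nephron lists have medians of -0.43 and -0.35, and the macrophage list has 2.22. The list labelled magnesium targets of EGF holds magnesium transport genes, whose dependence on Egf was not tested.

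Across the 21 replicates the named genes most like Egf by Pearson's r were Vegfb (0.957), Pptc7 (0.956), Mfsd4a (0.953), Tom1l2 (0.950) and Ptpdc1 (0.949), all lower on average in obstructed kidneys. Those most like Hbegf were Dusp8 (0.957), Plaur (0.953), Atf3 (0.952), Nop58 (0.951) and Tnfrsf12a (0.944). For Btc the closest was Rfk (0.928), and for Erbb2 it was Vdr, the vitamin D receptor gene (0.905). These likenesses, over 15298 named genes with a value in every replicate, include the difference between operations that the genes share. After each group's mean was taken away they ran from 0.591 to 0.776 for the 5 Egf partners and from 0.594 to 0.815 for the 5 Hbegf partners.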

How the data were processed

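Per the labels, kidney RNA (Cy5) and a universal mouse reference RNA (Cy3) were co-hybridised on 22 arrays with 1 dye orientation. The deposited values are log10 ratios of 45220 spots, a unit and log base read from the values (from -3.11 to 4) because no source states them; direction follows the labelled dyes, and the sources used here do not say how background was corrected or values normalized. From 11.4% to 20.5% of an array's spots read exactly 0 and were treated as missing. Values were multiplied by 3.322 to give log2, each array's median was subtracted, spots measured on at least 18 arrays were kept, and spots of a gene were averaged after centring. A GEO platform annotation named 33653 spots with 1 gene, 56 with several and 11511 with none. R 4.3.3 and limma 3.58.1 fitted 8 group means over 17039 genes (13 residual degrees of freedom, Benjamini-Hochberg threshold 0.05). Array number limits precision. All members are named whatever their result; lists name at most the 4 genes of lowest p, with exceptions stated. The members and lists were chosen with earlier results of these data known. Image folders in the labels served as batches: folder 1 holds 4 arrays, of which 3 are from day 5.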

Additional observations from a re-analysis of the deposited data

Results flagged for a closer look

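Within the 4 obstructed kidneys of day 9, the Egfr spots annotated to NM_007912 read -0.036 in S34L, against 0.28 to 0.34 in the other 3, a gap of 0.837 of the group's whole range. Chance sets apart about 1 in 20 such groups. Every tested member, Epgn and the Egfr and Ereg transcript sets were screened in this way, so such a gap can arise by chance among them. Without S34L the mean difference of those spots over the 4 days, itself not called (-0.17, adjusted p = 0.0649 by limma), kept its direction. The day 9 difference kept its direction and call in 34 of 35 other settings, the exception being the fit without S33L.

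The effect of obstruction on Egfr differed between days 9 and 1 by -0.703 ± 0.18 (limma over all genes, adjusted p = 0.0231), with a difference of -0.10 at day 9 and 0.60 at day 1. That call was lost with arrays marked L alone, image folder 2 alone, each probe by itself, without any 1 of S03, S06R or S33L, and without S06R, S08L, S09L and S21L together. For the NM_007912 spots alone it differed by -0.937 ± 0.21 (adjusted p = 0.0103), with -0.62 at day 9 and 0.32 at day 1. For the NM_207655 spots the same difference was -0.57 ± 0.23 (adjusted p = 0.134). These 2 sets of spots were formed after their values had been seen, which limits both p-values.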

How the results depend on the processing

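Of the alternatives, the plain average of spots, the accession average and the set without S06R, S08L, S09L and S21L were chosen after seeing the data. Over the tests of members and Egfr transcripts, leaving out 1 replicate left 1131 results with the same call, made 17 pass and ended 28 calls. Other settings left 774 with the same call, made 11 pass, ended 32 and reversed 1, Erbb4, which read -0.17 with spots measured on every array. Results called in neither fit count as the same, and a change of direction was counted only where either fit made a call. Btc at day 2, not called, ran from -0.76 to 0.56 when 1 replicate was left out. Egf, Hbegf and Erbb2 over the mean of the 4 days kept their calls under all alternatives run. Fitting each day by itself, which leaves few degrees of freedom, took the member count at day 1 from 4 to 0. At day 2 array weights gave 2 instead of 1, and leaving out a replicate gave 1 to 2. At day 5 the count of 2 became 1 with quantile normalization, 0 in image folder 2 alone and 0 to 3 without a replicate. Over the 4 days it was 3 instead of 5 with zeros kept, in folder 2 alone and without the 4 arrays. The effect at day 9 minus day 1 was called for 2 members with array weights, for 0 with arrays marked L, each probe by itself, folder 2 alone or without the 4 arrays, and for 0 to 2 without a replicate, against 1. Differences between days were called for 1 member with no median centring, zeros kept, array weights or S03L and S03R separate, against 0, and for 0 to 1 without a replicate. Over all genes, day 1 calls numbered 185 when that day was fitted by itself, 909 in folder 2 and 1100 without S06R, against 2971; day 2 calls numbered 1004 without S08L and 1693 with quantile normalization, against 2610; day 5 calls numbered 1227 in folder 2, against 4451; and day 9 calls numbered 4453 without S33L, against 7087. The cause was not tested. Fitting each day alone gives no mean or time test. No paired analysis was possible because the groups share no animal numbers. With 2 sham animals a day, single days rest on the pooled spread.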
